A study of Mus musculus with 8 samples.

Results

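Microtubule proteins and the motors that run on microtubules were followed as mouse oligodendrocyte progenitor cells (OPCs) became oligodendrocytes. Members were chosen by gene symbol alone: alpha, beta and gamma tubulins with the gamma tubulin ring complex (symbols starting with Tuba, Tubb and Tubg), tubulin folding cofactors (Tbca to Tbce), dynein and dynactin subunits (Dync, Dynl, Dctn), kinesin light chains (Klc), kinesins Kif1 to Kif5 with the letter a, b or c, stathmins (Stmn), end-binding proteins (Mapre), and the microtubule-associated proteins Map1, Map2, Map4 and Mapt. The prefix Map1 also takes in the LC3 genes Map1lc3a and Map1lc3b as well as Map10 and Map11. The beta tubulin Tubb4a meets the pattern and was left out. The rule found 59 genes among the 10982 gene symbols (10987 transcripts) of the deposited values. Any other tubulin, such as Tuba1a, Tubb2a or Tubb6, was not analysed here.

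OPCs had been derived from epiblast stem cells of male 129S/SvEv embryos and grown with bFGF and PDGFA, and oligodendrocytes came from the corresponding OPC cultures after 3 days in differentiation medium with noggin, IGF-1, cyclic AMP, NT3 and T3. Each cell type had 2 cultures, lysates of several plates were pooled in each, and part of a differentiated culture remains undifferentiated OPCs. From each lysate a library of total RNA fragments (RNA-seq) and a library of ribosome footprints, left on monosomes after micrococcal nuclease, were sequenced, giving 8 libraries. Values are FPKM, fragments scaled to feature length and to library size. RNA-seq was counted along the entire transcript, footprints along the coding sequence (CDS) alone.

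Microtubules are hollow filaments of alpha and beta tubulin that grow from gamma tubulin rings, exchange subunits mostly at their plus ends, and are stabilised along their length by structural microtubule-associated proteins. Kinesins mostly carry cargo toward plus ends, while cytoplasmic dynein, working with dynactin, carries it toward minus ends. An oligodendrocyte sends out many branched processes filled with microtubules, and myelin mRNAs, vesicles and mitochondria travel along these to the sheaths.

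RNA-seq libraries held an estimated 166 to 241 Mb (megabases) aligned in OPCs and 77.9 to 120.3 Mb in oligodendrocytes. Footprint libraries held 207 to 249 Mb in OPCs and 93.0 to 214 Mb in oligodendrocytes, and each estimate carries a possible factor of 2. The shallowest, footprints of oligodendrocyte replicate 2, listed 31.1% of transcripts at 0 against 14.7% to 20.5% in the other footprint libraries. All 7 oligodendrocyte markers tested rose in both kinds of library, and all 5 proliferation markers fell in RNA-seq. Of the OPC markers, 4 of 6 were higher in oligodendrocytes in RNA-seq, with the largest rises in Gpr17 and Sox10, followed by Pdgfra and Sox6. In footprints 3 were higher, without Sox6, and none was lower in either kind of library. The summed FPKM of 5 astrocyte markers also moved, from between 183 and 244 in OPC RNA-seq to between 860 and 977 in oligodendrocytes. Most of that rise was S100b, at 20.6 and 12.6 against 675 and 633 FPKM. Slc1a2 and Gfap were also called higher, while Aldoc and Aldh1l1 were not called. The sum of 9 neuron markers was between 58.7 and 93.1 in every RNA-seq library, with Gap43 lower and Dcx higher in oligodendrocytes. The microglial Csf1r was at 0.067 or listed at 0. In such bulk lysates a change in the number of cells of a type and a change in RNA per cell cannot be told apart, and the part of these markers in the results was not tested.

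Most members that changed were higher in oligodendrocytes, in RNA and in footprints alike. Of the 59 genes, 52 reached the minimum mean of 1 FPKM in RNA-seq, and 26 of them changed at an adjusted p under 0.05 (limma over all transcripts, Benjamini-Hochberg), against 33.2% of all 8346 transcripts tested. The split was 19 higher and 7 lower, where 13% of all transcripts were called higher and 20.2% lower. In footprints 51 reached the minimum and 21 were called, 18 higher and 3 lower, against 23.6% of 8342 transcripts (12.8% higher and 10.8% lower). The median log2 fold change (oligodendrocytes over OPCs, from log2 of FPKM + 0.1) was 0.46 for the members in RNA-seq and -0.23 over all transcripts tested, and 0.53 against -0.16 in footprints.

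Both oligodendrocyte cultures lay above both OPC cultures for 31 of 52 members in RNA-seq, where 27.6% of all transcripts did so, and below them for 13, where 44.2% did. In footprints 32 of 51 lay above and 9 below, against 31.8% and 37.9% of all transcripts. With 15 members higher in both kinds of library and 3 lower in both, none was called in opposite directions, and the signs differed for a single gene of 51, Tubgcp4, which was called in neither. The remaining members called in 1 kind of library are given with their groups below.

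**Figure D1:**
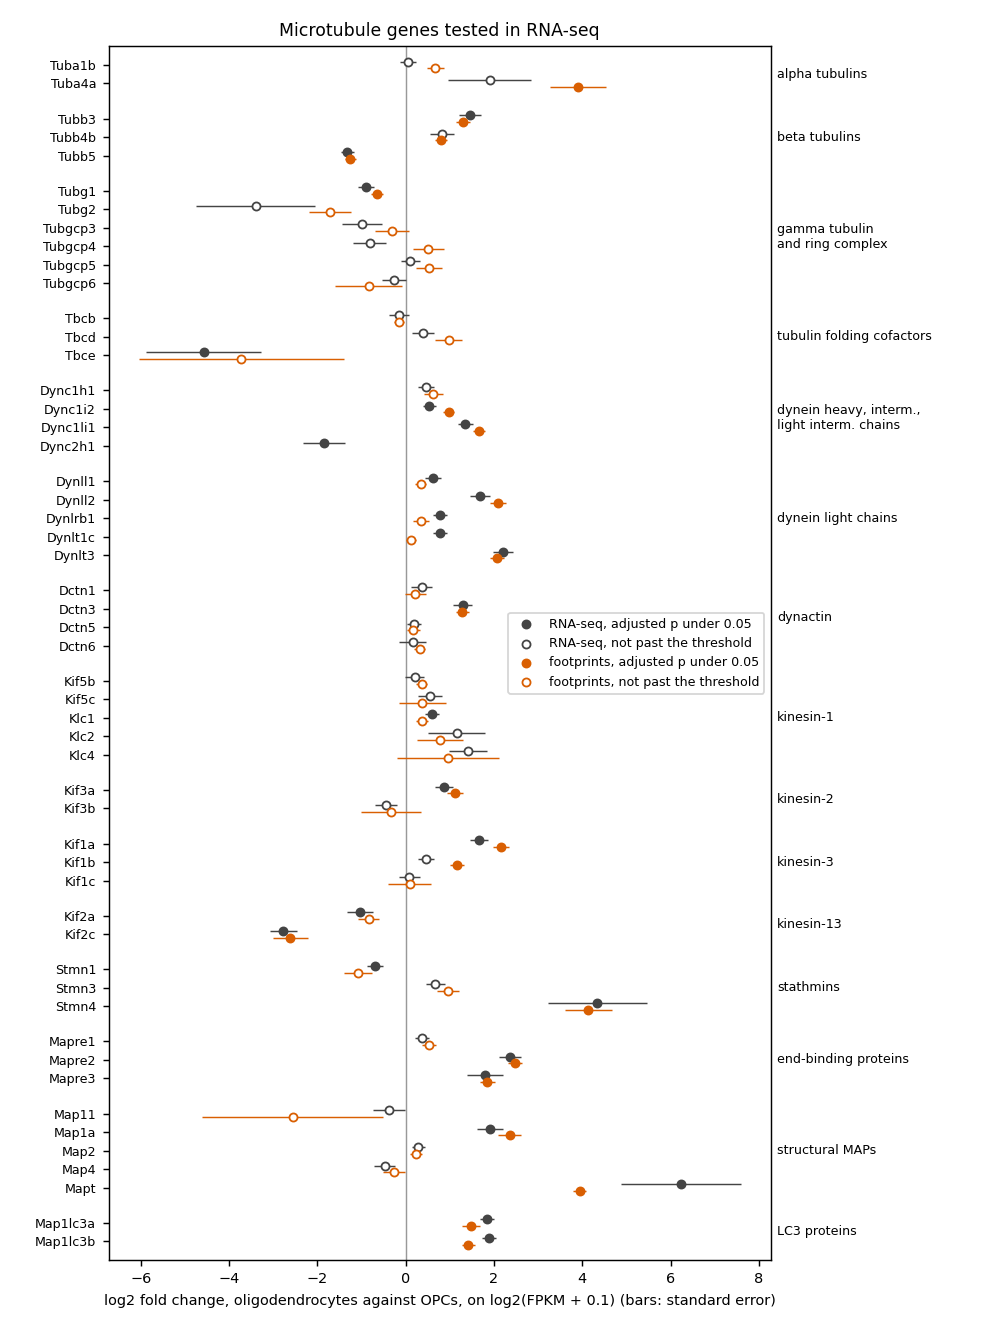
Log2 fold change of the 52 members tested in RNA-seq, oligodendrocytes over OPCs, with a pseudocount of 0.1 FPKM, grouped by role. Grey points are RNA-seq and orange points footprints, bars are standard errors over 2 cultures for each cell type, and filled points passed the adjusted threshold. Filled points to the right of 0 number 19 in RNA-seq and 18 in footprints, those to the left 7 and 3.

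When the RNA-seq libraries were scaled by median ratios instead, the median over all transcripts moved from -0.23 to -0.05, higher transcripts went from 39.1% to 51.5% of the calls, and 28 members were called, 23 of them higher, with Kif1b, Klc4, Mapre1 and Stmn3 gained and Kif2a and Stmn1 lost. With 2 cultures in a group an exact two-sided test cannot go below 0.333, so each adjusted p depends on the spread that limma shares across transcripts. Leaving out 1 library left 1 culture in its cell type, and fewer members were then called in RNA-seq. Those called were mostly higher without either OPC replicate, as were the calls over all transcripts. Without oligodendrocyte replicate 2 the members called were mostly higher and the calls over all transcripts mostly lower. Without oligodendrocyte replicate 1 the RNA-seq split of the members was near even, and over all transcripts it also moved toward lower calls. In footprints the calls of the members and of all transcripts were lost without either OPC replicate. Without oligodendrocyte replicate 1 calls rose in number, mostly higher for the members and mostly lower over all transcripts. Without oligodendrocyte replicate 2 calls fell in number, with higher calls in the majority for both. Dynlt3, Kif1a, Map1lc3a, Map1lc3b and Mapt were the members still called in RNA-seq without OPC replicate 2, the library in which Mapt is listed at 0.

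The beta tubulins tested, a part of the family, shifted in opposite directions. Tubb5, the beta tubulin with the highest level here, fell in both kinds of library, Tubb3, best known from neurons, rose, and the broadly expressed Tubb4b rose in footprints. Tubulin mRNAs are known for autoregulation, in which excess soluble tubulin triggers decay of the mRNA through the first residues of the nascent tubulin chain, so the CDS starts are shown with their first 4 codons in capitals (Gencode vM21, GRCm38, coding strand).

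Tuba1b: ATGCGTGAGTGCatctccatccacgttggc
Tuba4a: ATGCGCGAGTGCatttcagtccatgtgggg
Tubb3: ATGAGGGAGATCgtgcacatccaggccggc
Tubb4b: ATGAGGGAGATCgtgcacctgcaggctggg
Tubb5: ATGAGGGAAATCgtgcacatccaggccgga
Tubg1: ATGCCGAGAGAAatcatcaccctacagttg

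Tubb3 (chr8:123411424-123422015, plus strand) and Tubb4b (chr2:25222160-25224702, minus strand) share their first 12 coding bases, which open the CDS of 2 of 10973 listed transcripts (0.0182%). As bases, those of Tubb5 (chr17:35833921-35838306, minus strand) were found in no other listed transcript. The same held for Tuba1b (chr15:98931425-98934565, minus strand) and Tuba4a (chr1:75214228-75219294, minus strand). These differences are synonymous: the beta tubulins shown all encode Met-Arg-Glu-Ile, and Tuba1b and Tuba4a both encode Met-Arg-Glu-Cys. Gamma tubulin, Tubg1 (chr11:101119938-101126419, plus strand), opens differently. These letters are given as a description, and decay of the mRNAs was not analysed here.

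Tubb5 stood at 419 and 450 FPKM in OPC RNA-seq and at 166 and 180 in oligodendrocytes. Its footprints were at 1428 and 1410 FPKM in OPCs and at 551 and 639 in oligodendrocytes. The cell types did not overlap, with log2 fold changes of -1.33 ± 0.15 (SE, n = 2 cultures each, here and below) in RNA-seq and -1.26 ± 0.13 in footprints (adjusted p = 0.0027 and 0.0097).

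Tubb3 went the other way, from 18.5 and 12.3 FPKM in OPC RNA-seq to 40.5 and 42.3. RNA-seq gave a log2 fold change of 1.45 ± 0.24 and footprints 1.3 ± 0.15 (adjusted p = 0.0087 and 0.0119). Tubb4b was at 74.1 and 122 FPKM in OPC RNA-seq and at 146 and 194 in oligodendrocytes, which missed the threshold (0.82 ± 0.28, adjusted p = 0.071), while its footprints, at 202 and 241 against 364 and 404 FPKM, passed it (0.79 ± 0.14, adjusted p = 0.028). Of the 30-base words of the Tubb4b CDS 78.3% also occur in other transcripts, mainly the pseudogene Tubb4b-ps1, so its level is uncertain. Its footprint call was lost with median-ratio scaling, without a filter and without the trend. With the replicate block (cultures of the same number paired) RNA-seq passed too (adjusted p = 0.0052).

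Ratios within a library do not depend on its scaling. For each Tubb5 the OPC libraries held 0.177 and 0.272 Tubb4b in RNA-seq and the oligodendrocyte libraries 0.877 and 1.07. In footprints the same ratio was 0.142 and 0.171 in OPCs and 0.660 and 0.632 in oligodendrocytes. Tubb3 to Tubb5 moved from 0.0440 and 0.0272 to 0.243 and 0.235 in RNA-seq. These pairs, and those given below, were chosen after their values had been seen and carry no test.

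Of the alpha tubulins neither tested member was called in RNA-seq, and Tuba4a was called in footprints. Tuba1b, the most abundant alpha tubulin measured, stood at 233 and 281 FPKM in OPC RNA-seq and at 236 and 299 in oligodendrocytes, overlapping (log2 fold change 0.05 ± 0.19, adjusted p = 0.85). Its footprints were at 467 and 550 against 700 and 926 FPKM, which did not overlap and missed the threshold (0.67 ± 0.19, adjusted p = 0.080), though they passed it with the replicate block (adjusted p = 0.019). Tuba1b shares 97.3% of its 30-base CDS words with other transcripts, chiefly Tuba1c, so reads of these paralogs cannot be assigned with certainty.

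Tuba4a, an alpha tubulin whose gene does not encode the usual C-terminal tyrosine, was scarce in OPCs. It was listed at 0.797 and 0.235 FPKM in OPC RNA-seq and at 3.79 and 0.974 in oligodendrocytes, about 18.2, 3.7, 43.2 and 7.18 reads of 30 bases, and was not called (1.90 ± 0.94, adjusted p = 0.17). Its footprints rose from 0.610 and 0.483 to 8.82 and 10.3 FPKM (3.90 ± 0.64, adjusted p = 0.024). That call was lost with the replicate block (adjusted p = 0.063) and without a filter. Of the 2840 bases of its transcript 1379 overlap the antisense gene Stk16, where the FPKM do not separate strands. The testis-associated Tuba3a and Tuba3b, Tuba8 and the platelet tubulin Tubb1 were under the minimum in both kinds of library, with no RNA-seq value above 0.188 FPKM.

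Gamma tubulin and its ring complex nucleate microtubules. Of 6 members 1 was called in each kind of library, and it was Tubg1 in both. Tubg1 fell from 36.4 and 32.9 to 19.9 and 17.1 FPKM in RNA-seq (-0.90 ± 0.19, adjusted p = 0.017) and from 67.7 and 69.4 to 42.2 and 45.2 in footprints (-0.65 ± 0.13, adjusted p = 0.039). The footprint call was lost with the replicate block (adjusted p = 0.064), with median-ratio scaling and without the trend.

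Its paralog Tubg2 was at 4.55 and 4.29 FPKM in OPC RNA-seq and at 1.73 and listed at 0 in oligodendrocytes (adjusted p = 0.10), with 33.1% of the Tubg1 and 31.3% of the Tubg2 words shared. With the replicate block Tubg2 passed the threshold in RNA-seq (adjusted p = 0.032). Among the ring proteins, Tubgcp3 to Tubgcp6, log2 fold changes in RNA-seq ran from -0.99 to 0.11 and in footprints from -0.84 to 0.53, with none called. Tubgcp5, for example, had footprints at 9.63 and 12.7 FPKM in OPCs and at 17.3 and 14.7 in oligodendrocytes, not overlapping (0.53 ± 0.30, adjusted p = 0.28). Of Tubgcp4, 2130 of 4206 bases overlap the antisense gene Trp53bp1.

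The folding cofactors that assemble tubulin dimers gave 1 call in 3. Tbce, the alpha tubulin cofactor, was at 9.79 and 10.0 FPKM in OPC RNA-seq and at 1.66 and listed at 0 in oligodendrocytes (adjusted p = 0.043). Its footprints, at 9.89 and 15.1 against 8.63 and listed at 0, were not called (adjusted p = 0.31). The cultures of oligodendrocytes thus disagreed in footprints. The RNA-seq call was lost with a pseudocount of 0.01, without a filter and without the trend. Tbcb, at 51.8 and 67.3 against 45.5 and 62.2 FPKM, and Tbcd were not called.

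Cytoplasmic dynein rose in part, led by a light intermediate chain and by light chains. The heavy chain Dync1h1, the motor itself, was at 44.1 and 39.0 FPKM in OPC RNA-seq and at 50.9 and 63.9 in oligodendrocytes, not overlapping but under the threshold (0.46 ± 0.19, adjusted p = 0.11). Dync1li1, a light intermediate chain that links the motor to cargo adaptors, rose from 47.6 and 41.0 to 121 and 105 FPKM in RNA-seq (1.35 ± 0.17, adjusted p = 0.0037). In footprints it rose from 87.0 and 95.1 to 313 and 263 FPKM (1.66 ± 0.14, adjusted p = 0.0075).

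The intermediate chain Dync1i2, which binds dynactin, rose less, from 59.2 and 60.8 to 92.0 and 82.0 FPKM in RNA-seq (0.53 ± 0.15, adjusted p = 0.043) and from 161 and 176 to 305 and 355 in footprints (0.97 ± 0.13, adjusted p = 0.016). Dync2h1, the heavy chain of the dynein of cilia, fell from 3.49 and 4.63 to 1.21 and 0.897 FPKM (-1.85 ± 0.47, adjusted p = 0.031) and was under the minimum in footprints. The 4 chains therefore gave 2 rises and 1 fall in RNA-seq.

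All 5 dynein light chains rose in RNA-seq and 2 of them in footprints. Of the RNA-seq calls, those of Dynlt3 and Dynll2 held under every alternative that kept all libraries. The calls of Dynll1, Dynlrb1 and Dynlt1c were lost without the trend, and those of Dynll1 and Dynlrb1 also without a filter. Dynlt3 had the largest rise, from 17.8 and 27.0 to 99.5 and 103 FPKM (2.21 ± 0.23, adjusted p = 0.0024), and its footprints went from 71.5 and 66.4 to 326 and 257 (2.07 ± 0.16, adjusted p = 0.0069). Dynll2, an LC8 chain, rose from 25.4 and 29.2 to 106 and 72.1 FPKM (1.68 ± 0.23, adjusted p = 0.0049) and in footprints from 322 and 274 to 1443 and 1104 (2.09 ± 0.19, adjusted p = 0.0080). The footprint ratio of Dynll2 to its paralog Dynll1 was 0.283 and 0.221 in OPCs and 1.00 and 0.707 in oligodendrocytes.

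Dynll1 itself changed less, from 94.9 and 123 to 159 and 171 FPKM in RNA-seq (0.61 ± 0.18, adjusted p = 0.048). Dynlrb1, the roadblock chain, and Dynlt1c, a Tctex chain, each had a log2 fold change of 0.77 ± 0.16 in RNA-seq. Their footprints, with log2 fold changes of 0.35 ± 0.18 and 0.12 ± 0.11, were not called, and those of Dynll1 were called with the replicate block (adjusted p = 0.038) but not without it (0.34 ± 0.13, adjusted p = 0.14). Every 30-base word of the Dynlt1c CDS occurs in another transcript, among them Dynlt1-ps1, and 45.6% of those of Dynll1 do.

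Dynactin, the activator of dynein, was called in 1 of 4 subunits, against 33.2% of all transcripts in RNA-seq and 23.6% in footprints. Dctn3, a subunit of its shoulder, rose from 47.7 and 62.8 to 118 and 154 FPKM in RNA-seq (1.3 ± 0.22, adjusted p = 0.0086) and from 145 and 118 to 308 and 331 in footprints (1.29 ± 0.15, adjusted p = 0.0115). The large subunit Dctn1 was at 23.3 and 18.3 against 30.8 and 22.9 FPKM in RNA-seq, overlapping. Dctn5 and Dctn6, of the pointed end, had log2 fold changes of 0.19 ± 0.16 and 0.16 ± 0.30. All 4 subunits had positive log2 fold changes in both kinds of library, and a missed threshold does not show that a subunit was unchanged.

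**Figure D2:**
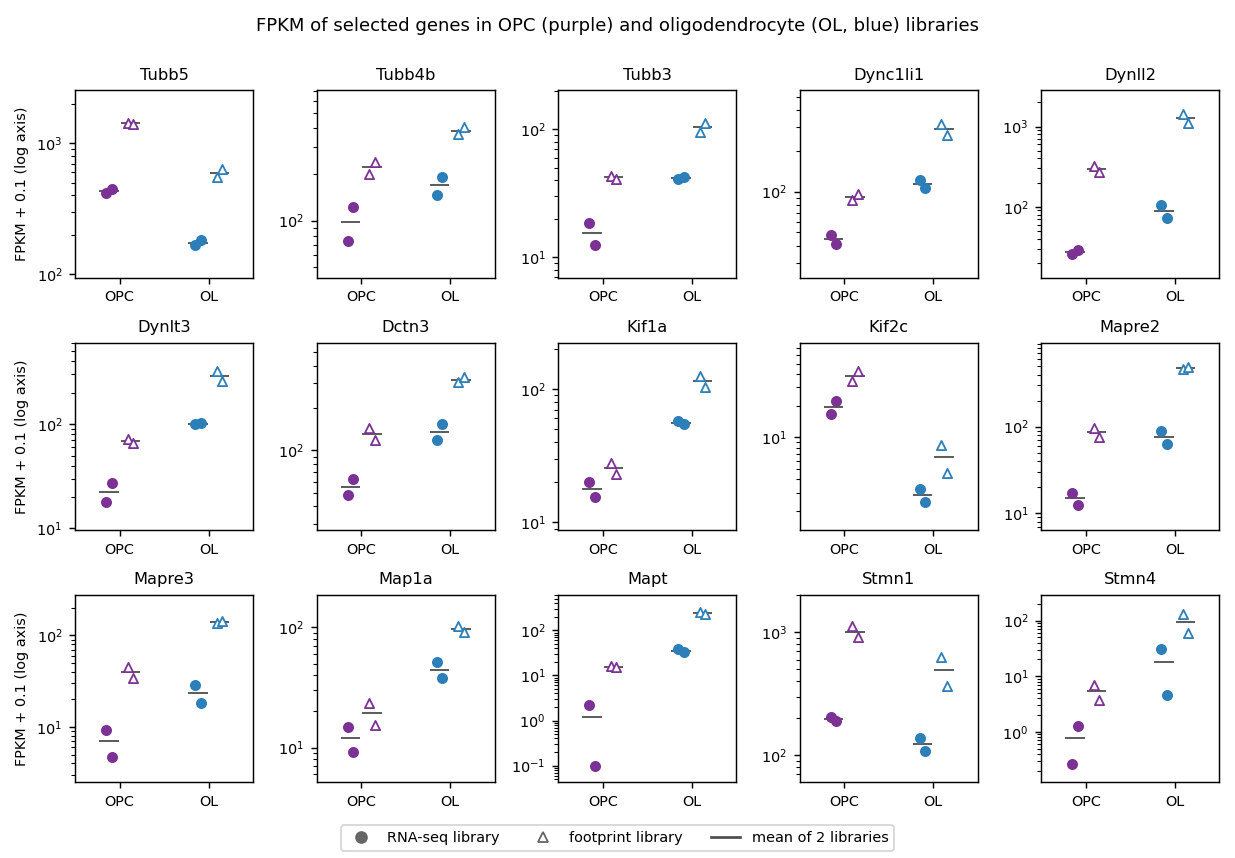
FPKM + 0.1 (log axis) of 15 members in each library, OPCs in purple and oligodendrocytes (OL) in blue, with circles for RNA-seq, open triangles for footprints and lines at the mean of 2 libraries. Tubb5, Kif2c and Stmn1 lie lower in oligodendrocytes, the remaining 12 higher, and in each panel the cell types do not overlap within a kind of library.

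Kinesins are given by family, and the families were not tested against each other. Kinesin-1, the general plus-end carrier, gave 1 call in 5 in RNA-seq, where 33.2% of all transcripts were called. All 5 of its members tested had positive log2 fold changes there, with a median of 0.60. Its light chain Klc1 rose from 49.7 and 47.8 to 69.7 and 78.3 FPKM in RNA-seq (0.60 ± 0.15, adjusted p = 0.032), with footprints at 64.4 and 60.0 against 84.7 and 75.1 (0.36 ± 0.14, not called). The heavy chain Kif5b was at 51.1 and 70.4 against 62.0 and 76.9 FPKM, overlapping (0.20 ± 0.22). Kif5c, Klc2 and Klc4 had log2 fold changes between 0.54 and 1.41 in RNA-seq and were not called, though Klc4 passed with the replicate block (adjusted p = 0.022) and with median-ratio scaling.

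Kinesin-3 motors, known for carrying synaptic and other vesicles over long distances, rose for 2 of 3 members in footprints. Kif1a rose from 20.1 and 15.5 to 57.1 and 54.4 FPKM in RNA-seq (1.66 ± 0.20, adjusted p = 0.0033) and from 27.7 and 23.0 to 125 and 104 in footprints (2.17 ± 0.18, adjusted p = 0.0074). Kif1b, which carries mitochondria and vesicles and has been tied to transport of myelin mRNA, was at 26.7 and 30.2 against 41.9 and 36.6 FPKM in RNA-seq (0.46 ± 0.18, adjusted p = 0.096), and was called there with median-ratio scaling (0.64, adjusted p = 0.035). Its footprints rose from 26.7 and 29.98 to 66.2 and 61.0 FPKM (1.17 ± 0.16, adjusted p = 0.016). Kif1c had log2 fold changes of 0.08 ± 0.23 in RNA-seq and 0.09 ± 0.49 in footprints.

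Of the kinesin-2 heterodimer, Kif3a rose from 13.04 and 11.5 to 22.6 and 22.1 FPKM in RNA-seq (0.86 ± 0.20, adjusted p = 0.023) and in footprints (1.12 ± 0.18, adjusted p = 0.022). Its partner Kif3b was at 10.5 and 8.98 against 7.15 and 7.13 FPKM (-0.44 ± 0.25, adjusted p = 0.22). Kif3a to Kif3b was 1.24 and 1.28 in OPC RNA-seq and 3.16 and 3.09 in oligodendrocytes.

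Kinesin-13 members, which depolymerise microtubule ends, fell. Kif2c, the depolymerase of mitotic centromeres, dropped from 16.5 and 22.1 to 3.13 and 2.34 FPKM in RNA-seq (-2.77 ± 0.31, adjusted p = 0.0027) and from 34.0 and 42.5 to 8.34 and 4.50 in footprints (-2.61 ± 0.40, adjusted p = 0.021). Kif2a, also used by non-dividing cells, went from 15.5 and 20.7 to 10.7 and 7.01 FPKM in RNA-seq (-1.04 ± 0.30, adjusted p = 0.044), with footprints at 41.1 and 47.3 against 29.3 and 20.5 (-0.84 ± 0.25, adjusted p = 0.084). The Kif2a call was lost with median-ratio scaling, with a pseudocount of 0.01, without a filter and without the trend. Of its 5304 bases 1229 overlap the antisense gene Dimt1. The proliferation markers moved with this group, at a summed 369 and 509 FPKM in OPC RNA-seq and 122 and 138 in oligodendrocytes, and their part in it was not tested.

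Stathmins, which bind free tubulin dimers and promote disassembly, gave 1 rise and 1 fall in RNA-seq, and Stmn1 stayed the highest of them in every library. Stmn1 was at 204 and 191 FPKM in OPC RNA-seq and at 137 and 108 in oligodendrocytes (-0.70 ± 0.17, adjusted p = 0.029). Its footprints, at 1119 and 911 against 626 and 363 FPKM, did not overlap and missed the threshold (-1.08 ± 0.31, adjusted p = 0.080), which they passed with the replicate block (adjusted p = 0.024). The RNA-seq call of Stmn1 was lost with median-ratio scaling, without a filter and without the trend. Of its CDS words 96.0% occur elsewhere, mainly in Gm11223.

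Stmn4, a membrane-bound stathmin, rose from 0.168 and 1.17 to 30.8 and 4.43 FPKM in RNA-seq (4.34 ± 1.12, adjusted p = 0.032), the OPC values standing for about 1.77 and 8.43 reads. In footprints it rose from 6.86 and 3.61 to 131 and 60.7 FPKM (4.14 ± 0.54, adjusted p = 0.015). The RNA-seq call of Stmn4 was lost without a filter and without the trend, and its footprint call without a filter. Stmn3 missed the threshold, at 23.6 and 25.02 against 46.2 and 32.4 FPKM in RNA-seq (adjusted p = 0.065), and passed it with the replicate block in RNA-seq (adjusted p = 0.041) and in footprints (adjusted p = 0.016), and with median-ratio scaling in both. Stmn3 to Stmn1 was 0.115 and 0.131 in OPC RNA-seq and 0.337 and 0.301 in oligodendrocytes.

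End-binding proteins, which track growing plus ends and recruit other factors there, rose for Mapre2 and Mapre3 in both kinds of library. Mapre2 (EB2) went from 17.3 and 12.2 to 88.6 and 63.7 FPKM in RNA-seq (2.36 ± 0.26, adjusted p = 0.0027) and from 95.8 and 76.4 to 466 and 484 in footprints (2.47 ± 0.15, adjusted p = 0.0047). Mapre3 (EB3) went from 9.09 and 4.605 to 28.8 and 18.1 FPKM in RNA-seq (1.80 ± 0.40, adjusted p = 0.021) and from 44.7 and 34.3 to 138 and 145 in footprints (1.85 ± 0.18, adjusted p = 0.0088). Mapre1 (EB1), the general plus-end tracker, was at 50.3 and 47.2 against 67.4 and 59.4 FPKM in RNA-seq and missed the threshold (0.38 ± 0.16, adjusted p = 0.12), as did its footprints outside the replicate block (adjusted p = 0.096, and 0.031 with it). With median-ratio scaling it was called in RNA-seq (0.56, adjusted p = 0.040). Mapre2 to Mapre1 went from 0.344 and 0.259 in OPC RNA-seq to 1.31 and 1.07 in oligodendrocytes, and in footprints from 0.188 and 0.168 to 0.598 and 0.785, where Mapre1 stayed the higher.

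Among the structural microtubule-associated proteins Map1a and Mapt rose, in both kinds of library, and Map2, Map4 and Map11 were not called. Map1a, a large stabilising protein of neurites, rose from 14.8 and 9.15 to 51.4 and 37.6 FPKM in RNA-seq (1.91 ± 0.30, adjusted p = 0.0069) and from 23.3 and 15.4 to 103 and 92.0 in footprints (2.35 ± 0.25, adjusted p = 0.0108). Mapt, which encodes tau, was at 2.14 FPKM and listed at 0 in OPC RNA-seq and at 38.5 and 32.4 in oligodendrocytes (adjusted p = 0.020). The 0 stands beside OPC footprints of 16.3 and 14.98 FPKM, and 3 reads would have given 0.398 FPKM in that library. The RNA-seq call of Mapt was lost with a pseudocount of 0.01, without a filter, without the trend, and without either oligodendrocyte replicate (adjusted p = 0.077 and 0.11).

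Tau footprints rose to 257 and 228 FPKM (3.94 ± 0.14, adjusted p = 0.0028). Map2, the most abundant structural protein here in RNA-seq, was at 102 and 95.7 FPKM in OPCs and at 117 and 124 in oligodendrocytes, not overlapping but under the threshold (0.29 ± 0.14, adjusted p = 0.18). The ubiquitous Map4 was at 28.4 and 22.0 against 20.5 and 15.7 FPKM (-0.48 ± 0.24). Map1a to Map4 thus went from 0.520 and 0.416 in OPC RNA-seq to 2.51 and 2.40 in oligodendrocytes, and from 0.241 and 0.205 to 1.22 and 1.54 in footprints.

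**Figure D3:**
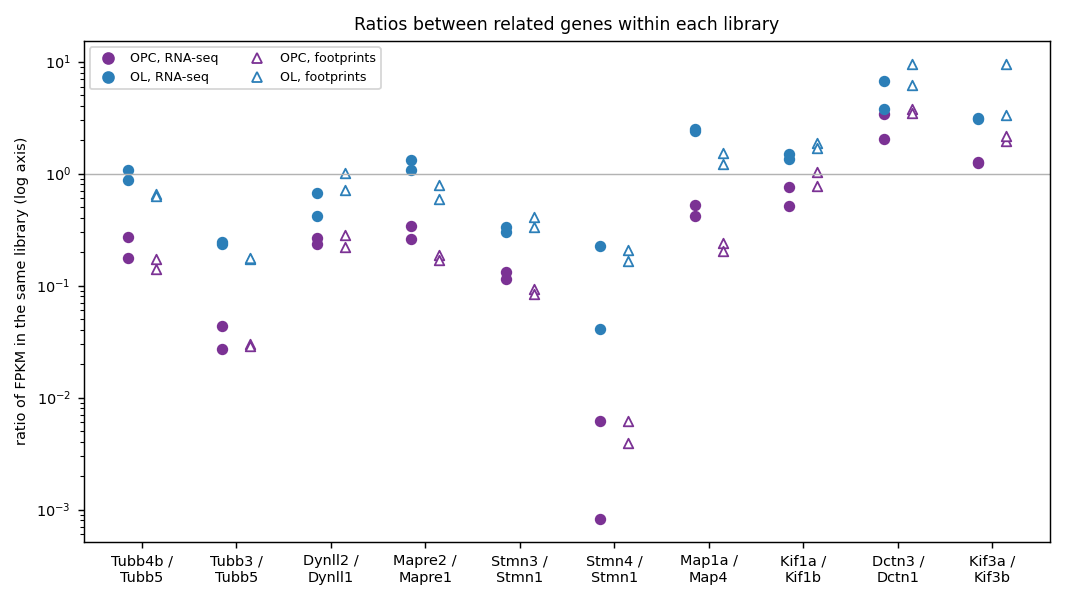
Ratio of the FPKM of related members within the same library (log axis), for 10 pairs, with circles for RNA-seq and open triangles for footprints, OPCs in purple and oligodendrocytes (OL) in blue. In every pair the oligodendrocyte ratios lie above the OPC ratios of the same kind, as for Tubb4b to Tubb5 at 0.877 and 1.07 against 0.177 and 0.272 in RNA-seq, and the pairs were chosen after their values had been seen.

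The LC3 genes, first found as light chains of microtubule-associated proteins and best known for building autophagosomes, rose together. Map1lc3a went from 34.8 and 30.4 to 114 and 118 FPKM in RNA-seq (1.83 ± 0.16, adjusted p = 0.0013) and Map1lc3b from 23.2 and 22.7 to 87.3 and 83.2 (1.89 ± 0.15, adjusted p = 0.0012). In footprints their log2 fold changes were 1.48 ± 0.20 and 1.42 ± 0.15 (adjusted p = 0.016 and 0.010). Every 30-base CDS word of Map1lc3b also occurs elsewhere, mainly in Gm6055, so reads of the gene and its copies cannot be told apart.

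Ribosome density, footprint FPKM over RNA-seq FPKM in the same culture, asks whether footprints moved beyond the RNA. None of 51 members was called for a change in density by limma, against 0.0124% of 8056 transcripts (1 transcript), while 4 members had an unadjusted p under 0.05, as 387 of all transcripts did. Their median log2 change was 0.10, the same as over all transcripts (0.10), and -0.06 for both with median-ratio scaling. This fit takes the 8 libraries as independent, although the footprints and RNA-seq of a culture share a lysate. Fitted instead on the density of each culture, 0 of 51 members and 0 of 8056 transcripts were called. Standard errors of the members' density changes in the fit over 8 libraries ran from 0.17 to 3.09, and a change that missed the threshold is not shown to be absent. The members called in RNA-seq only or in footprints only are thereby not shown to differ between the 2 kinds of library.

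Kif1b was at a density of 1.00 and 0.993 in OPCs and of 1.58 and 1.67 in oligodendrocytes (log2 change 0.70 ± 0.22, adjusted p = 0.875). Dynlt1c went the other way, from 12.6 and 10.5 to 7.83 and 6.88 (-0.65 ± 0.17, adjusted p = 0.77). Dync1i2, with a log2 change of 0.44 ± 0.18, and Map1lc3b, with -0.47 ± 0.19, were the other two at an unadjusted p under 0.05. In each of these 4 the cultures of the cell types did not overlap, and none held up over all transcripts.

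**Figure D4:**
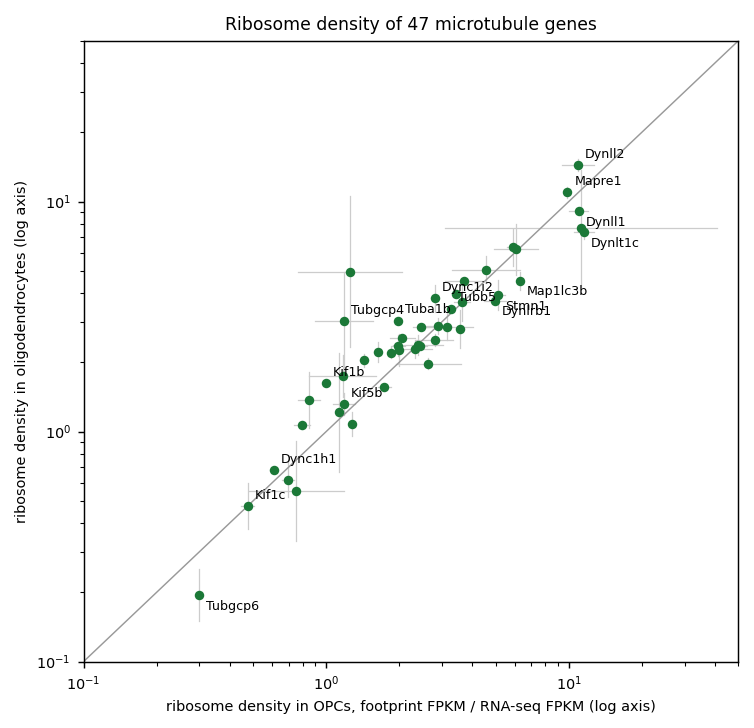
Ribosome density (footprint FPKM over RNA-seq FPKM, log axes) of the 47 members that were tested for density and had a value in all 4 cultures, as the geometric mean of the OPC cultures against that of the oligodendrocyte cultures, with grey bars joining the 2 cultures. Points lie along the line of equal density, 28 of 47 above it, from Tubgcp6 at 0.303 or less in every culture to Dynll2 at 9.38 and above.

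Between members the densities spread far more than between cell types. The median of the members was 2.07 and 2.08 in OPCs and 2.59 and 2.57 in oligodendrocytes, against 1.72 and 1.77, and 2.02 and 1.95, for all transcripts. Among the members tested for density Tubgcp6, a ring complex protein, was lowest in every culture at 0.149 to 0.303, and the heavy chain Dync1h1 stayed between 0.585 and 0.697. Dynll2, at 9.38 to 15.3, Dynll1, at 9.06 to 12.0, and Mapre1, at 9.63 to 11.6, were among the highest. The highest value of all, 40.7 for Stmn4 in OPC replicate 1, rests on about 1.77 RNA-seq reads, and Stmn4 was at 3.09 in the other OPC culture. RNA-seq is counted over the whole transcript and footprints over the CDS, which enters such a comparison between genes, and its part was not tested.

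In sequence features that the rule did not use, the members lay near the table as a whole. Their median CDS was 1497 bases against 1377 over all transcripts, ranging from 270 to 13935, and their median transcript 2532 against 2919. The codon UUU made up a median 40.0% of their Phe codons against 42.9% over all, and AAA 34.2% of their Lys codons against 36.8%.

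Of 57 other microtubule genes listed by role, 41 were in the table. In RNA-seq 11 of 40 tested were higher and 9 lower, where 13% of all transcripts were higher and 20.2% lower. Their median log2 fold change was -0.06, against -0.23 over all transcripts. In footprints 9 of 37 were higher and 3 lower, where 12.8% of all transcripts were higher and 10.8% lower. The stabiliser Tppp, which nucleates microtubules in oligodendrocyte processes, rose from 3.65 and 2.60 to 122 and 106 FPKM in RNA-seq (log2 fold change 5.16). Among tubulin-modifying enzymes the acetyltransferase Atat1 rose (1.82) and the detyrosinating peptidase Vash1 fell (-1.49) in RNA-seq, and both were called in footprints too. The minus-end protein Camsap2, the plus-end protein Clip3 and the kinesin adaptor Mapk8ip1 rose in both kinds of library. Mapk8ip3 and the stabiliser Map6 also rose in both, while Spdl1, listed with the motor regulators, fell in both. In RNA-seq only, Ckap5, Hdac6, Ttl, Ttll4, Dclk1 and Dclk2 were called lower and Ttll5 and Map7d1 higher. Of the severing proteins listed, Katnal1 rose in both and Fignl1 fell in both. Doublecortin, Dcx, which is also in the neuron list, rose in both, while the neuronal Gap43 fell in both.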

How the data were processed

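The labels gave cell type and assay for each of the 8 libraries. The authors deposited FPKM values: reads were trimmed (at least 18 nucleotides kept), mapped to GRCm38 with HISAT2 2.1.0 and tabulated with StringTie 1.3.5 and ballgown on canonical coding transcripts of Gencode vM9, replicates apart, with no strand option given. FPKM were used as deposited. From them, log2(FPKM + 0.1) was tested with limma 3.58.1 (R 4.3.3, eBayes with trend) over all transcripts averaging 1 FPKM or more, separately for RNA-seq and footprints, and as an interaction over all 8 libraries for ribosome density. All tests were two-sided with Benjamini-Hochberg adjustment and a threshold of 0.05.

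Named members are, in each role, those called (up to 5, by RNA-seq change), the most abundant, and those listed at 0 throughout a group. Of the last, Klc3, Kif2b and Map10 were under the minimum in both kinds of library and are not described further. Some others were named after their values were seen. Members and lists were chosen with earlier results of these data known. Depth was estimated from the steps between the 1500 lowest values. Reads behind a value assume 30 bases. Coordinates and CDS came from Gencode vM21, in which shared 30-base words were counted. The labels' replicate numbers were taken as pairs, since oligodendrocytes came from the corresponding OPC cultures. Same-numbered deviations correlated at 0.108 in RNA-seq and 0.0860 in footprints. The fits were tested on simulated data.

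Alternatives were other pseudocounts (1 and 0.01), no filter or a minimum of 5 FPKM, median-ratio scaling, limma without the trend, a replicate block and each library left out. For ribosome density both libraries of a culture were left out together, and a fit on the density of each culture was added.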

Additional observations from a re-analysis of the deposited data

How the results depend on the processing

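With all libraries, 11 members were called in RNA-seq and 11 in footprints under every alternative run. In RNA-seq these were Dync1li1, Dynll2, Dynlt3, Kif1a, Kif2c, Kif3a, Map1lc3a, Map1lc3b, Mapre2, Tubb5 and Tubg1. In footprints they were Dync1li1, Dynll2, Dynlt3, Kif1a, Map1a, Map1lc3b, Mapre2, Mapre3, Mapt, Tubb3 and Tubb5. Every other call of a member was lost under at least 1 of these alternatives. RNA-seq calls numbered 26 as reported, 13 without a filter on low values and 15 without the trend in limma. With the replicate block, pairing the cultures, 30 members were called in RNA-seq, 24 in footprints and 0 in ribosome density. The block added Klc4, Stmn3, Tubb4b and Tubg2 in RNA-seq and Dynll1, Mapre1, Stmn1, Stmn3 and Tuba1b in footprints, where it ended the calls of Tuba4a and Tubg1, and it changed no other call of a member. With 1 library left out, the calls ranged from 5 to 21 in RNA-seq, from 0 to 26 in footprints and from 0 to 2 in ribosome density. Among all transcripts, footprint calls numbered 1969 as reported, 0 without either OPC replicate, 3442 without oligodendrocyte replicate 1 and 778 without oligodendrocyte replicate 2. The sign of an RNA-seq log2 fold change turned for 5 of 52 members with a library left out, none of them called (Dctn6, Kif1c, Kif5b, Tbcb and Tuba1b): Tuba1b ranged from -0.12 to 0.22 (-0.08 without OPC replicate 1), Tbcb from -0.37 to 0.073 (0.037 without OPC replicate 2) and Kif5b from -0.028 to 0.43, and with median-ratio scaling Tbcb was at 0.031. In footprints 6 of 51 members turned with a library left out, none of them called (Dctn1, Kif1c, Kif3b, Kif5c, Klc4 and Map11), and 0 under the other alternatives. In ribosome density 20 of 51 turned with a culture left out and 10 under other alternatives. Depth limits the low members, and a value listed at 0 can be a failed estimate. The causes were not tested.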
